A study of Homo sapiens with 6 samples.

Results

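The 46 genes described here encode the machinery of mitosis: the kinases, cyclins and phosphatases that drive cells from G2 into M phase, the spindle checkpoint, the motors and microtubule-binding proteins of the spindle, and the kinetochore. They were taken by name from a table of 60612 genes, each name matched 1 row, and all 46 were expressed strongly enough to be tested among 18863 tested genes. RNA came from PANC-1, an established human cell line derived from a ductal carcinoma of the pancreas. Its 6 poly(A) libraries fall into 3 from cells given D(+)-raffinose pentahydrate at 50 µM for 24 h and 3 from cells with no compound named, whose own labels state neither a vehicle nor a time. The general treatment text is identical for all 6 samples, so the groups follow the sample titles and source names. Raffinose is a plant trisaccharide built from galactose, glucose and fructose. The series title names proliferation, apoptosis and the PI3K/AKT pathway as what the comparison addresses. No label states whether replicate libraries derive from separate cultures, and p-values therefore measure a spread between libraries that may be technical.

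Transcripts of mitotic genes build up in G2 and M and are low in resting cells, and many of their promoters carry a CCAAT box and a cell cycle genes homology region (CHR), the site of the DREAM and MuvB complexes. During mitosis the cyclin B kinase CDK1 starts entry, kinetochores join chromosomes to spindle microtubules, and the checkpoint proteins hold back the ubiquitin ligase APC/C until each kinetochore is attached. In a carcinoma line these genes are used as a readout of how many cells divide. In bulk RNA, a smaller share of cells in G2 or M and less of a transcript in each such cell cannot be told apart.

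Total estimated counts ranged from 59723420 to 66063664 per library, and the lowest estimated count of any of the 46 genes in any library was 1307. Levels below are the deposited FPKM (fragments scaled to transcript length and library depth), which allow genes to be compared per length. Fold changes are log2 of raffinose over untreated from edgeR, and a gene was called at an adjusted p under 0.05 over all tested genes. Of 7 epithelial genes used to check the cell line, KRT8, KRT18, CDH1 and SOX9 averaged at least 1 FPKM over the 6 libraries, whereas KRT7, KRT19 and EPCAM did not. The summed level of these 7 genes was 666 to 699 FPKM in raffinose libraries and 864 to 1002 FPKM in untreated libraries, and its part in the results below was not tested. The 4 acinar markers were listed at the table's floor in every library, no leukocyte, endothelial or endocrine marker averaged 1 FPKM, and of 7 fibroblast markers COL1A1 and COL3A1 did. The fibroblast list summed to 44.6 to 47.3 FPKM in raffinose libraries and 47.9 to 52.0 FPKM in untreated libraries.

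Promoter sequences are shown for KNSTRN, the only one of the 46 genes that was called, for SPAG5, whose protein astrin works in 1 complex with that of KNSTRN, and for CDC20 and NDC80, one lower and one higher at an unadjusted p under 0.05. Each runs 5′ to 3′ on the gene's own strand from 250 bases before to 30 bases after the start in RefSeq (GRCh38.p14), and capitals mark CHR (TTTGAA) and CCAAT on either strand. The windows are chr15:40382471-40382750 on the plus strand for KNSTRN, chr17:28598996-28599275 on the minus strand for SPAG5, chr1:43358731-43359010 on the plus strand for CDC20 and chr18:2571307-2571586 on the plus strand for NDC80.
KNSTRN: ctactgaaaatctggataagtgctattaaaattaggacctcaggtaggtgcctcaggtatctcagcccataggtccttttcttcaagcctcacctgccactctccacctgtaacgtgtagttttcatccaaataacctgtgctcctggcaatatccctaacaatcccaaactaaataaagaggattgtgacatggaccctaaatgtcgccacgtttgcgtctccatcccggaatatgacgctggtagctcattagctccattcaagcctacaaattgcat
SPAG5: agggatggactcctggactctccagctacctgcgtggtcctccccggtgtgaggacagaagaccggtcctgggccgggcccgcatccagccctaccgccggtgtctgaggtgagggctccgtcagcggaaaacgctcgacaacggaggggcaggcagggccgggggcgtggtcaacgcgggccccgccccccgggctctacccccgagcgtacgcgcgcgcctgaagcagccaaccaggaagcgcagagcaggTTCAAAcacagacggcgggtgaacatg
CDC20: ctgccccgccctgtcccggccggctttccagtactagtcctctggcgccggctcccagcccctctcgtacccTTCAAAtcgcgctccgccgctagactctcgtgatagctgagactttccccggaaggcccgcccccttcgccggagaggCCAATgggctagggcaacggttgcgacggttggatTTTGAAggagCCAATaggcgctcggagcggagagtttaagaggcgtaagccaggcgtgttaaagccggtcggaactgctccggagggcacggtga
NDC80: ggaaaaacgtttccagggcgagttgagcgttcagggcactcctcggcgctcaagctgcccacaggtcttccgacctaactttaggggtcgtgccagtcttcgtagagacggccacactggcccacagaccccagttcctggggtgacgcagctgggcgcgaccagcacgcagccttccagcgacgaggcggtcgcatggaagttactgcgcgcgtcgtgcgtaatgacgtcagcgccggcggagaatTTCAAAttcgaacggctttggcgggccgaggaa

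CDC20 held 2 copies of each motif, with a CHR 65 bases and a CCAAT box 55 bases before the start. SPAG5 and NDC80 each held 1 CHR on the reverse strand, 4 bases after the start for SPAG5 and 3 bases before it for NDC80, and no CCAAT box. The KNSTRN window held neither set of letters. GENCODE 29, however, lists 11 start positions for KNSTRN, and the one tagged as supported by CAGE, at position 40382941, lies 220 bases downstream of the first. In the first exon, positions 40382721 to 40383044, the letters TTTGAA occurred once, at 40382941 to 40382946, and CCAAT did not occur. The 30 bases around that copy, chr15:40382929-40382958 on the plus strand, are given for comparison with the windows above.
KNSTRN at the CAGE-supported start: cggaagtttctaTTTGAAacccaggcggcc

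Of the 46 genes, 39 had a RefSeq promoter window. A CHR was found for 26 of these 39 (66.7%), against 17.4% of all 27305 genes with a window. CCAAT was found for 30 of 39 (76.9%), against 38.7% of all genes, and both motifs for 21 (53.8%), against 7.83%. The median log2 fold change was 0.026 for the genes with a CHR in the window and -0.013 for those without, and 0.015 and -0.039 with and without CCAAT. These differences were not tested.

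The 46 genes were split about evenly in sign. Their median log2 fold change was 0.0049, against 0.0059 for all tested genes, with 24 above and 22 below 0, or 29 above and 17 below after quantile normalization. Only KNSTRN was called lower, 1 of the 46 (2.17%), and none was called higher. Of all tested genes, 0.122% were called in either direction, 0.0848% lower and 0.0371% higher. The 46 genes were chosen with earlier results of these data known, so these shares are no test of the group. At an unadjusted p under 0.05, 11 of the 46 (23.9%) passed, against 13.3% of all tested genes. Of these 11, 4 were higher (8.7% of the 46, against 6.21% of all tested genes) and 7 lower (15.2%, against 7.08%). The FPKM of the groups did not overlap for 16 of the 46 (34.8%), against 22.4% of all tested genes. Raffinose was higher in 8 (17.4%, against 13.5%) and lower in 8 (17.4%, against 8.98%). These shares of all tested genes are not matched for level, and all 46 averaged at least 3.80 FPKM. With only genes averaging at least 1 FPKM in either group kept, 2006 of 12012 had an unadjusted p under 0.05. The 95% interval of the fold change lay inside 1.5-fold either way for 37 of the 46 and reached past 1.5-fold for the other 9, among them KNSTRN. A difference of 1.5-fold thus lay outside the interval for most of these genes.

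**Figure D1:**
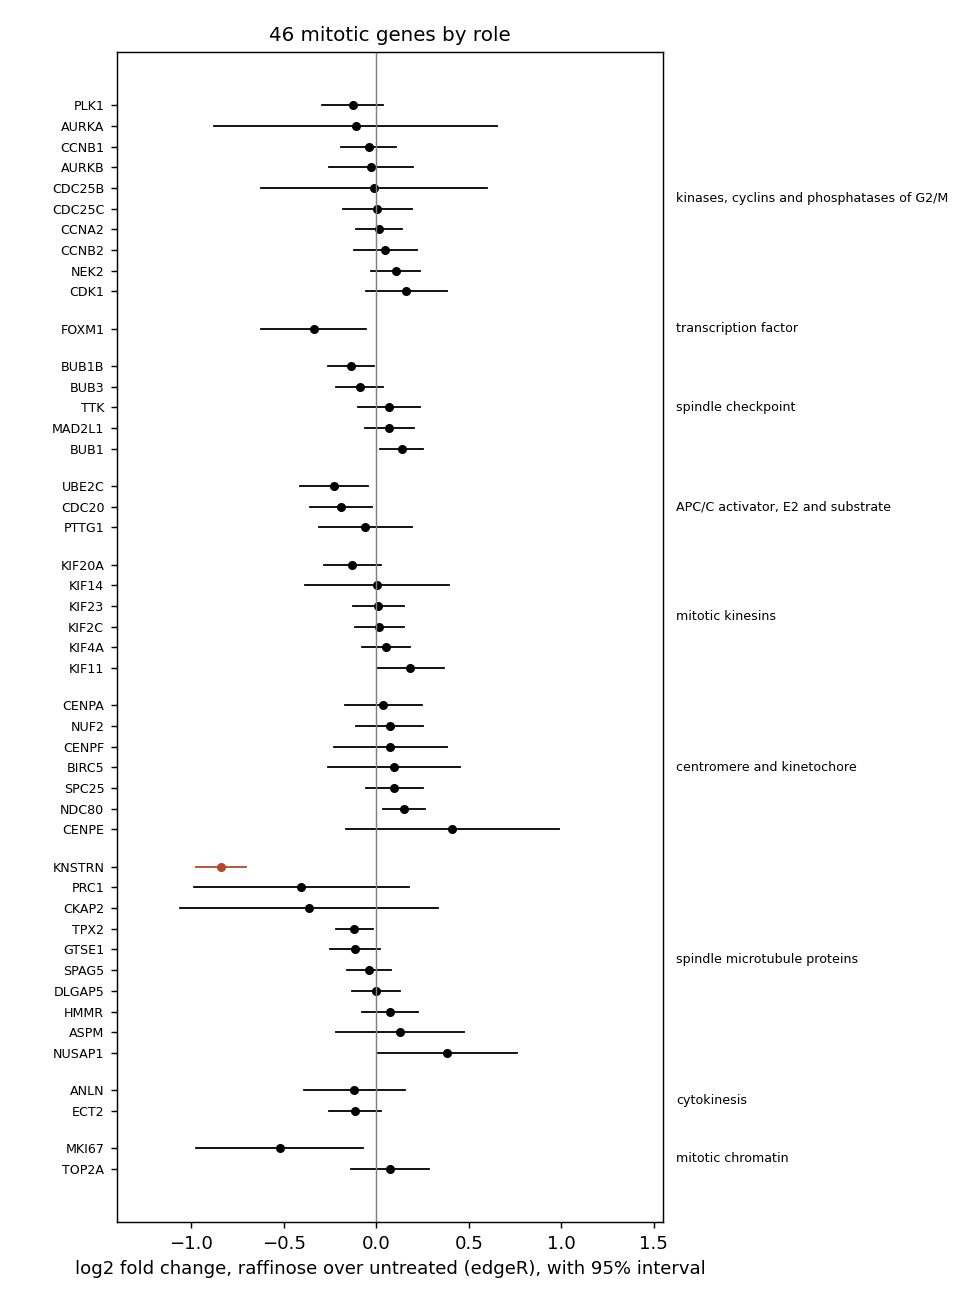
The x axis gives the log2 fold change of raffinose over untreated and the rows are the 46 genes in groups by role; points are edgeR estimates, lines 95% intervals, and red marks an adjusted p under 0.05. KNSTRN at -0.84 stands alone in red, and the widest lines belong to AURKA, CDC25B, CKAP2, PRC1 and CENPE.

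KNSTRN, which encodes the kinastrin (SKAP) protein that joins astrin at kinetochores and microtubule ends, fell. It was at 24.1, 24.2 and 23.0 FPKM in the raffinose libraries, against 41.4, 40.9 and 41.9 FPKM in the untreated libraries. All raffinose libraries lay below all untreated ones, and the gap between the groups was far wider than the spread within either. The means were 23.8 ± 0.665 FPKM with raffinose and 41.4 ± 0.506 FPKM without (SD, n = 3 each). The log2 fold change was -0.84 (SE 0.057, edgeR adjusted p = 0.00945), a ratio of 0.559 with a 95% interval of 0.509 to 0.615. Without untreated replicate 3 the log2 fold change was -0.83 and the call was lost (adjusted p = 0.0829), and in the 5 other fits that left out a library the adjusted p ranged from 0.0324 to 0.0493. With the replicate number as a block the log2 fold change was -0.84 and the call was lost as well (edgeR adjusted p = 0.265).

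KNSTRN (ENSG00000128944) spans positions 40382721 to 40394246 of chromosome 15, plus strand, in the deposited table. No other gene of the table overlapped it. Of 12 tested neighbours within 200 kb none was called (lowest adjusted p = 0.338, for BUB1B, which is itself one of the 46). Their log2 fold changes ran from -1.36 (SE 0.64) for PLCB2 to 0.32 (SE 0.18) for BAHD1. PAK6 had -0.85 (SE 0.45), at low estimated counts of 37, 15 and 19 with raffinose and 55, 41 and 30 without. The nearest gene upstream, DISP2, lies 4100 bases away (log2 fold change -0.26, SE 0.13), and the nearest downstream, IVD, 11239 bases away (-0.013, SE 0.058). Chromosome 15 holds 6 of the 46 genes, and the log2 fold changes of the other 5 ran from -0.40 for PRC1 to 0.39 for NUSAP1.

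The partners of the KNSTRN protein in the astrin complex did not pass the test. SPAG5, which encodes astrin, was at 24.4, 23.5 and 23.8 FPKM in raffinose libraries and 23.1, 24.1 and 24.5 FPKM in untreated libraries. The groups overlapped, and the log2 fold change was -0.039 with a 95% interval of -0.16 to 0.080. KNSTRN over SPAG5 was therefore 0.989, 1.03 and 0.966 as a ratio of FPKM in the raffinose libraries, against 1.79, 1.70 and 1.71 in the untreated ones. DYNLL1, the dynein light chain of the complex, averaged 101 ± 4.22 FPKM with raffinose and 102 ± 5.78 FPKM without, and MYCBP, another subunit gene, 17.2 ± 0.204 FPKM with raffinose and 14.3 ± 2.57 FPKM without (log2 fold changes -0.057, SE 0.074, and 0.22, SE 0.14).

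**Figure D2:**
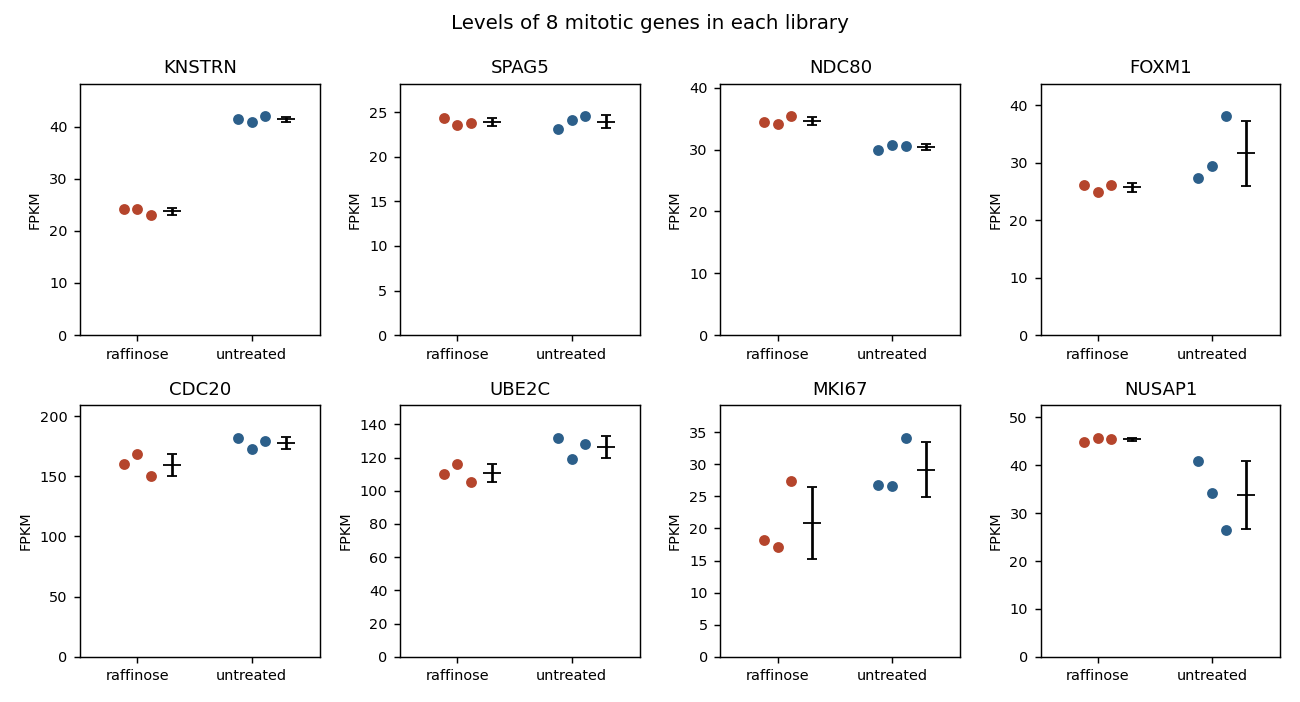
The y axis of each panel gives FPKM from 0 for 1 gene, with raffinose libraries left (red) and untreated libraries right (blue), 1 point per library, and mean ± SD (n = 3) beside them. KNSTRN separates the groups with 23.0 to 24.2 against 40.9 to 41.9 FPKM, while SPAG5 overlaps and MKI67, FOXM1 and NUSAP1 spread widely within a group.

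Levels differed widely among the 46 genes. Averaged over the 6 libraries they ran from 3.80 FPKM for CENPE to 203 FPKM for TPX2, with a median of 28.5 FPKM. TPX2, an activator of the Aurora A kinase on spindle microtubules, was the highest of the 46 in every library. CDC20 and CCNB1 followed, and their order differed between libraries. UBE2C and PTTG1 came next, with UBE2C above PTTG1 in every library although their ranges overlapped. At the low end KIF14 was likewise above CENPE in every library, with overlapping ranges.

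None of the 10 kinases, cyclins and phosphatases of G2/M was called. Their log2 fold changes were above 0 in 5 and below 0 in 5, with a median of -0.0033, and after quantile normalization above 0 in 8 and below in 2. CCNB1, the cyclin that activates CDK1, was at 156, 160.3 and 153 FPKM with raffinose and at 164, 152 and 156 FPKM without. The log2 fold change of CCNB1 was -0.041 with a 95% interval of -0.19 to 0.11. CDK1 itself averaged 18.4 ± 1.56 FPKM with raffinose and 16.1 ± 1.05 FPKM without, and its groups overlapped.

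PLK1, a kinase of centrosome maturation and spindle assembly, was at 21.7, 24.0 and 23.6 FPKM with raffinose and 25.4, 24.0 and 24.3 FPKM without (log2 fold change -0.13, SE 0.068). NEK2, a kinase that separates centrosomes, was at 19.2, 19.0 and 19.4 FPKM with raffinose and 16.5, 17.7 and 18.0 FPKM without (0.11, SE 0.056). Raffinose libraries lay just below the untreated ones for PLK1 and above them for NEK2, and neither gene passed (adjusted p = 0.485 and 0.477). CCNA2, CCNB2, AURKB and CDC25C had log2 fold changes from -0.028 to 0.050. AURKA and CDC25B, which jump between libraries of the same group, are described further on.

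FOXM1, the transcription factor that activates many G2/M genes, was at 26.1, 24.8 and 26.1 FPKM with raffinose and 27.4, 29.5 and 38.0 FPKM without. All raffinose libraries lay below the untreated ones, but untreated replicate 3 stood well above the other two. The log2 fold change of -0.34 (SE 0.12) did not pass (adjusted p = 0.309), and without untreated replicate 3 it was -0.19 (adjusted p = 0.443). RHNO1, on the opposite strand, overlaps the 5′ end of FOXM1 and had estimated counts of 4472, 5286 and 4967 in raffinose libraries and 5581, 4409 and 4370 in untreated ones, against 9285 to 13366 for FOXM1. The libraries mark strand, but whether counting used it is not given in the sources used here.

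None of the 5 checkpoint genes was called, with 3 fold changes above and 2 below 1. BUB1, a kinase that recruits checkpoint proteins to kinetochores, was at 25.3, 25.6 and 25.7 FPKM with raffinose and 21.9, 23.4 and 22.6 FPKM without, so the groups did not overlap. Its paralog BUB1B, a subunit of the mitotic checkpoint complex, was at 27.1, 27.0 and 28.0 FPKM with raffinose and 27.7, 30.0 and 30.3 FPKM without, with overlap. The log2 fold changes were 0.14 (SE 0.048, adjusted p = 0.309) for BUB1 and -0.14 (SE 0.051, adjusted p = 0.338) for BUB1B. MAD2L1 and BUB3, which form the checkpoint complex with BUB1B and CDC20, had non-overlapping groups with log2 fold changes of 0.072 and -0.089, and TTK, the kinase upstream of them, had 0.069.

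All 3 genes that act through the APC/C were below 0 on the log2 scale, and none was called. Without untreated replicate 1, 1 of the 3 was above 0. Among the further genes described below, the 17 of the APC/C core and regulators had 9 positive and 8 negative log2 fold changes. CDC20, the activator that the checkpoint restrains, was at 160.1, 168 and 150.1 FPKM with raffinose and 182, 172 and 179 FPKM without. UBE2C, the E2 enzyme that works with the APC/C, was at 110.3, 116 and 105 FPKM with raffinose and 132, 119 and 128 FPKM without. For both genes every raffinose library lay below every untreated one, with log2 fold changes of -0.19 (SE 0.069, adjusted p = 0.321) for CDC20 and -0.23 (SE 0.076, adjusted p = 0.296) for UBE2C. PTTG1, the securin that the APC/C destroys, averaged 100.5 ± 4.83 FPKM with raffinose and 102 ± 11.3 FPKM without, with overlap.

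The 7 genes listed here under centromere and kinetochore, without KNSTRN, all had a positive log2 fold change, and none was called. Without raffinose replicate 3 the count was 5 of 7, and without untreated replicate 1 it was 6 of 7. Genes acting at kinetochores but listed under other roles had both signs, such as SPAG5 at -0.039 and BUB1 at 0.14. Among the further genes described below, the 16 of the inner kinetochore had 9 positive and 7 negative fold changes on the log2 scale. The 19 of the outer kinetochore, corona and passenger list had 12 positive and 7 negative. The shared sign of the 7 genes thus depends on how roles were assigned. NDC80, the microtubule-binding subunit of the outer kinetochore, was at 34.5, 34.1 and 35.4 FPKM with raffinose and 29.9, 30.7 and 30.6 FPKM without. The groups did not overlap, and the log2 fold change of 0.15 (SE 0.047) had the smallest p of this role but did not pass (adjusted p = 0.273). SPC25, another subunit of the NDC80 complex, averaged 22.2 ± 0.289 FPKM in raffinose and 20.2 ± 0.769 FPKM in untreated libraries without overlap. NUF2, also of that complex, averaged 9.50 ± 0.723 FPKM in raffinose and 8.80 ± 0.284 FPKM in untreated libraries with overlap. CENPA, the centromeric histone variant, and BIRC5, the survivin subunit of the chromosomal passenger complex, had log2 fold changes of 0.039 and 0.095. BIRC5 was at 7.16, 7.91 and 10.9 FPKM with raffinose and 7.77, 7.86 and 8.01 FPKM without.

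CENPE, a kinetochore motor that moves chromosomes to the spindle equator, was at 3.85, 3.33 and 5.99 FPKM with raffinose and 2.62, 3.99 and 3.02 FPKM without. CENPF, a large protein of the outer kinetochore, was at 20.8, 19.0 and 25.2 FPKM with raffinose and 16.8, 22.3 and 21.0 FPKM without. Raffinose replicate 3 was the highest and untreated replicate 1 the lowest library for both genes. CENPE had the largest positive log2 fold change of the 46 at 0.41, but its SE was 0.24 and its groups overlapped. Without raffinose replicate 3 the log2 fold change of CENPE was 0.14.

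Of the 6 mitotic kinesins, 5 had a positive log2 fold change and none was called. Without raffinose replicate 3, or without untreated replicate 1, only 3 of the 6 were positive. KIF11, the motor that pushes spindle poles apart, was at 34.4, 31.2 and 35.6 FPKM with raffinose and 26.0, 31.1 and 29.8 FPKM without. The groups were adjacent without overlap, and the log2 fold change was 0.19 (SE 0.076, adjusted p = 0.368). KIF20A, a motor of the late spindle and cytokinesis, was the negative one at -0.13 (SE 0.063), and KIF2C, KIF4A, KIF14 and KIF23 ran from 0.0036 to 0.053. In cytokinesis, ECT2, which activates the small GTPase RhoA at the cell equator, averaged 26.3 ± 1.18 FPKM with raffinose and 27.7 ± 1.81 FPKM without, and ANLN, a scaffold of the contractile ring, 61.8 ± 4.59 FPKM with raffinose and 65.4 ± 10.6 FPKM without.

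Apart from KNSTRN, none of the 10 spindle microtubule genes was called. Fold changes lay above 1 in 3 of the 10 and below 1 in 7, KNSTRN included, and in 5 and 5 after quantile normalization. TPX2 was at 198, 196 and 198 FPKM with raffinose and 205, 215 and 207 FPKM without. The groups did not overlap, yet the step was small, and TPX2 did not pass (log2 fold change -0.12, SE 0.041, adjusted p = 0.309). NUSAP1, which bundles microtubules near chromosomes, was at 44.9, 45.6 and 45.5 FPKM with raffinose and 40.8, 34.1 and 26.4 FPKM without. Raffinose libraries lay together above the untreated ones, which spread over 1.54-fold, and the log2 fold change of 0.39 (SE 0.16) did not pass (adjusted p = 0.369). Without untreated replicate 3 it was 0.23. GTSE1, HMMR, DLGAP5 and ASPM ran from -0.11 to 0.13.

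MKI67, the proliferation marker Ki-67 that coats mitotic chromosomes, was at 18.2, 17.0 and 27.4 FPKM with raffinose and 26.8, 26.7 and 34.0 FPKM without. In both groups replicate 3 was the highest, and raffinose replicate 3 lay above 2 of the untreated libraries, so the groups overlapped. The log2 fold change was -0.52 (SE 0.19, adjusted p = 0.319), and with each library left out in turn it ran from -0.75 without raffinose replicate 3 to -0.40 without untreated replicate 3. TOP2A, the topoisomerase that untangles sister chromosomes, was at 54.3, 48.4 and 58.9 FPKM with raffinose and 44.2, 53.7 and 51.4 FPKM without (log2 fold change 0.076, SE 0.088). The chromatin genes MKI67 and TOP2A thus had fold changes of opposite sign, and neither was called.

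Several genes differed more between libraries of one group than between the groups. In 8 of the 46, the highest library of a group was at least 1.5 times the lowest of that group, which held for 15.3% of the 7345 tested genes at or above the level of the lowest of the 46. AURKA, the Aurora A kinase of centrosomes and spindle poles, was at 38.3, 75.7 and 69.0 FPKM with raffinose and 41.0, 77.8 and 74.6 FPKM without. Replicate 1 of each group stood well below the others, and the log2 fold change of -0.11 had a 95% interval of -0.88 to 0.66. CDC25B, a phosphatase that activates CDK1, was at 45.5, 42.9 and 71.7 FPKM with raffinose and 43.7, 43.6 and 69.9 FPKM without. Here replicate 3 of each group stood apart, and the interval of the log2 fold change ran from -0.62 to 0.60. For AURKA and CDC25B the deviation followed the replicate number in both groups. Over all tested genes the deviations of same-numbered libraries had correlations of -0.0089, -0.033 and 0.0063. Over the 46 genes, AURKA and CDC25B included, the correlations were 0.45, -0.046 and 0.46.

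PRC1, the bundler of antiparallel microtubules in the midzone of the dividing spindle, shares its locus with a readthrough gene on the same strand. PRC1 was at 39.5, 36.6 and 20.2 FPKM with raffinose and 41.2, 42.8 and 40.5 FPKM without. Raffinose replicate 3 was far below the other 5 libraries, although the groups did not overlap, and the log2 fold change of PRC1 was -0.40 (SE 0.24, adjusted p = 0.534), or -0.15 without that library. AC068831 (ENSG00000284946, chromosome 15, 90966190 to 91022566, minus strand) had estimated counts, scaled to the mean library total, of 2851, 3499 and 10899 with raffinose and 2930, 4905 and 3791 without. It was high in the library in which PRC1 was low. Summed, the 2 genes gave 19400, 18826 and 19350 in raffinose libraries, against 20298, 22889 and 20737 in untreated libraries, and raffinose replicate 3 no longer stood apart. The log2 ratio of the group means was -0.15 for the sum and -0.37 for PRC1 alone.

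CKAP2, a microtubule stabiliser of mitotic spindles, was at 29.1, 12.9 and 15.4 FPKM with raffinose and 24.4, 24.1 and 23.6 FPKM without. Raffinose replicates 2 and 3 were low while replicate 1 was the highest of the 6 libraries, and the log2 fold change of -0.36 (SE 0.29) did not pass. It was -0.80 without raffinose replicate 1 (adjusted p = 0.113), -0.15 without raffinose replicate 2 and -0.22 without raffinose replicate 3. CKAP2 spans positions 52455429 to 52476627 of chromosome 13. HNRNPA1L2 lies farther downstream on the same strand, at 52642425 to 52643796, and does not overlap CKAP2. Its scaled estimated counts were 2038, 84.7 and 11.1 with raffinose and 2393, 1926 and 2224 without. The 2 libraries low for CKAP2 were thus low for HNRNPA1L2 as well. For NUSAP1, the overlapping gene AC087721 on the same strand (ENSG00000285920) had a scaled estimated count of 1510 in untreated replicate 2 and at most 52.8 in the other libraries, and the sum of NUSAP1 and AC087721 was still lowest in untreated replicate 3, at 7225. Across the 46 genes, 9 were overlapped by a gene with at least 5% of their estimated count in some library. For 3 of the 9 (PRC1, NUSAP1 and CENPA) such a gene lay on the same strand. Over CENPA this was SLC35F6, with estimated counts of 2026, 2040 and 1815 with raffinose and 2430, 2292 and 2077 without. CENPA itself had 1307 to 1594. How reads were divided among overlapping genes is not given in the sources used here, and its part in these values was not tested.

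**Figure D3:**
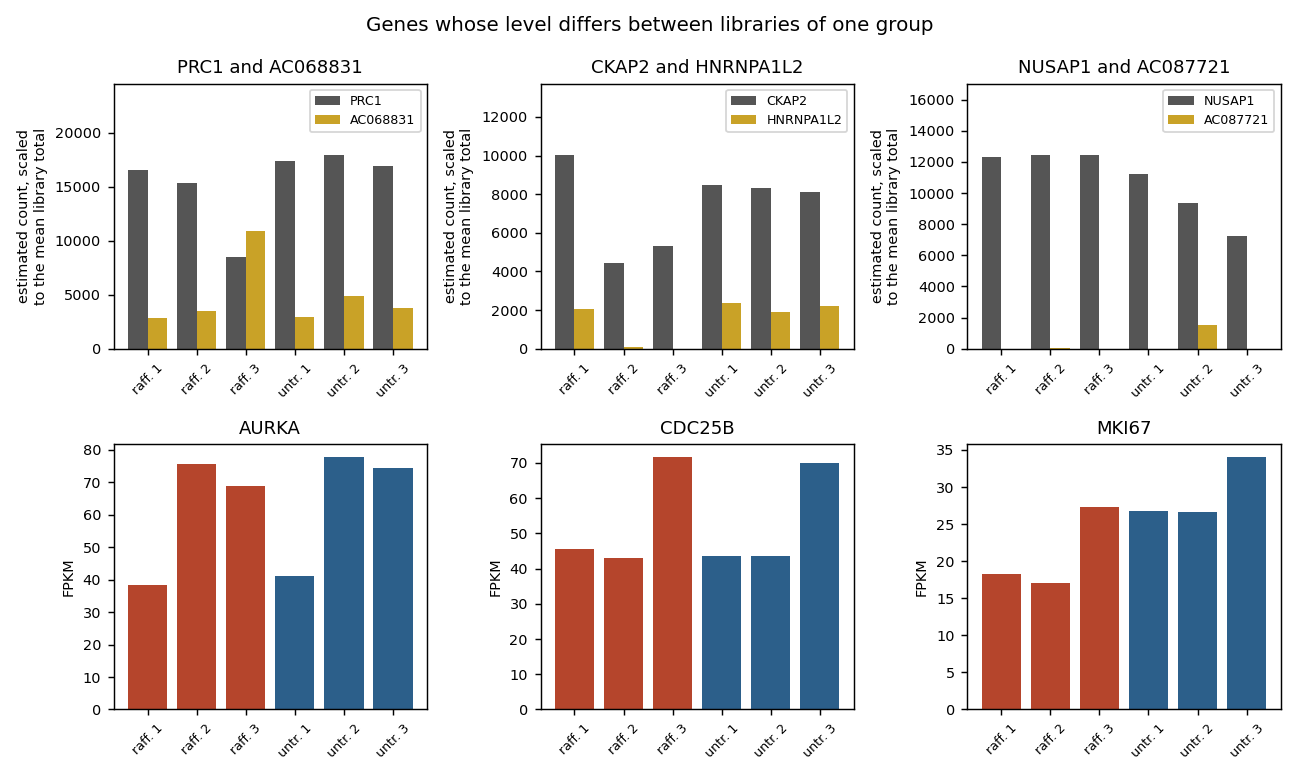
In the upper panels the y axis gives estimated counts scaled to the mean library total for PRC1, CKAP2 and NUSAP1 (grey). Yellow marks another gene of the same strand, which overlaps PRC1 and NUSAP1 but not CKAP2. The lower panels give FPKM of AURKA, CDC25B and MKI67 (red raffinose, blue untreated), 1 bar per library. In raffinose replicate 3 PRC1 is low and AC068831 high, and AURKA and CDC25B show the same replicate number apart in both groups.

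Some of the genes with long transcripts shared a pattern across libraries. The 10 genes of the 46 with the longest annotated transcripts, 4787 to 12678 bases in GENCODE 29, are MKI67, ASPM, CENPF, CENPE, BUB3, KIF14, TOP2A, MAD2L1, KIF11 and ANLN. Their median deviation from the mean over the 6 libraries, in log2 FPKM, was 0.039, -0.13 and 0.19 for the raffinose libraries in replicate order, and -0.26, 0.11 and 0.015 for the untreated libraries. By this median untreated replicate 1 was lowest and raffinose replicate 3 highest, which held for 6 of the 10 genes singly (ASPM, CENPF, CENPE, KIF14, TOP2A and KIF11). The other 4 differed: BUB3 was highest in untreated replicate 1, MAD2L1 was highest in raffinose replicate 1, and MKI67 and ANLN were highest in untreated replicate 3. ASPM, an organiser of spindle poles, followed it at 9.36, 8.03 and 10.9 FPKM with raffinose and 6.81, 9.55 and 8.88 FPKM without, and so did KIF14 at 6.03, 5.79 and 7.88 FPKM with raffinose and 5.05, 7.29 and 6.82 FPKM without. The other 36 genes had medians of 0.012, -0.017 and 0.013 for raffinose and -0.052, -0.0062 and 0.011 for untreated libraries. Untreated replicate 1 was thus lowest and raffinose replicate 3 highest for these genes as well, with smaller deviations.

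The same libraries stood at the ends over all long transcripts, with the 10 genes above included. Over all 1685 tested genes at these levels with transcripts at least as long, the medians in the same order were 0.017, -0.035 and 0.088 for raffinose and -0.12, 0.057 and 0.021 for untreated libraries. For the 5650 genes with shorter transcripts they ran from -0.016 in raffinose replicate 3 to 0.027 in untreated replicate 1. These ends were the reverse of those over long transcripts. The part of this length pattern in the values of CENPE, CENPF, ASPM, KIF14, KIF11 and TOP2A was not tested.

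**Figure D4:**
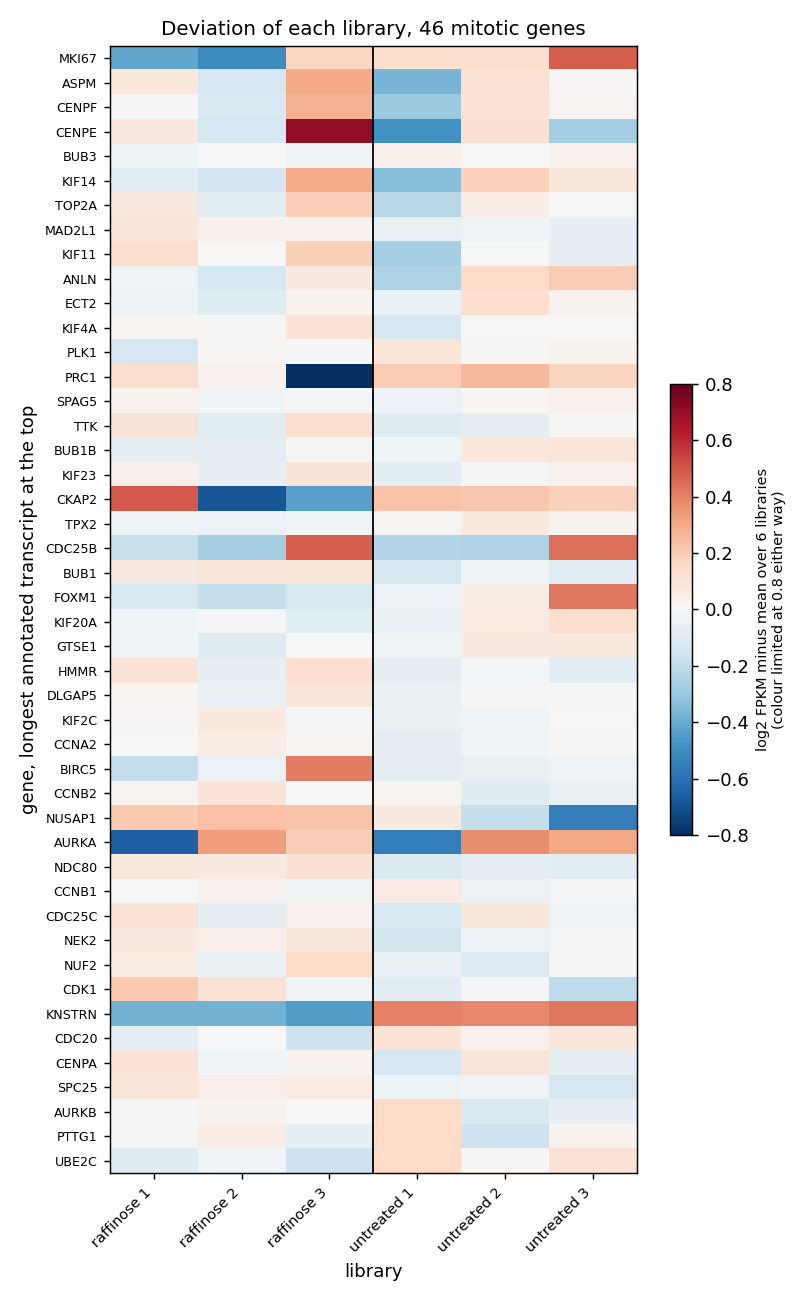
Rows are the 46 genes from the longest to the shortest annotated transcript, columns the 6 libraries, and colour gives log2 FPKM minus the gene's mean over 6 libraries. Of the 8 rows with all raffinose below all untreated libraries, KNSTRN shows the largest step. ASPM, CENPF, CENPE, KIF14 and TOP2A near the top are lowest in untreated replicate 1 and highest in raffinose replicate 3.

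The wider mitotic machinery outside the 46 was measured with 120 further genes in 8 lists, all of them tested. None was called, and 10 (8.33%) had an unadjusted p under 0.05, 4 higher and 6 lower, against 13.3% of all tested genes in either direction. The median log2 fold change was 0.015, with 64 positive and 56 negative, in a range from -0.32 to 0.34. HAUS4, a subunit of the augmin complex that branches spindle microtubules, had the smallest p, with 8.61 ± 0.534 FPKM with raffinose and 10.5 ± 0.380 FPKM without (log2 fold change -0.32, SE 0.080, adjusted p = 0.199). DESeq2, run as an alternative, called HAUS4 (adjusted p = 0.0417) and no other of the 120.

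In the other 7 lists the gene with the smallest p was not called by edgeR either. CENPX of the inner kinetochore had a log2 fold change of -0.30, ANAPC7 of the APC/C -0.24, ZW10 of the outer kinetochore 0.14 and the kinesin KIF22 -0.17. CDC25A, a phosphatase of cell cycle kinases, had -0.17, the cohesin regulator CDCA5 -0.14, and MYBL2, the B-MYB factor that joins MuvB, -0.12. Their adjusted p ranged from 0.251 for CENPX to 0.430 for CDCA5.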

How the data were processed

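The authors deposited 1 table that holds FPKM and estimated counts for each gene in each library, per the file headers. Tools listed in the submitters' processing notes, with no role given, are StringTie 1.3.4d, HISAT2 2.0.4 and cutadapt 1.9, besides DESeq2 and edgeR, and the genome build is not given in the sources used here. All 46 gene IDs occur in GENCODE 29, 14 of them with the same start and end. Deposited estimated counts are whole numbers, so no rounding was needed. In raffinose replicate 1, 1382 genes had a count of 4, against 456 with 3 and 286 with 5, so 1 read pair may add 4.

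Counts were fitted with edgeR 4.0.16 (R 4.3.3, filterByExpr minimum count 10, TMM scaling, glmQLFit, glmQLFTest) over 18863 genes with Benjamini-Hochberg adjustment. SE is the log2 fold change over the root of F, and intervals cover 95%. The fits were also run on counts simulated with the same dispersion for every gene. Those counts lack the jumps between libraries described above, so the runs cannot tell how such genes are called. DESeq2 1.42.0, limma 3.58.1, other scalings and filters, the replicate number as a block and leaving out libraries were alternatives.

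Members, lists and tests were chosen with earlier results of these data known. Named genes had an unadjusted p under 0.05, the smallest p of a role or list, an extreme level or a place on a fixed list; PRC1, CKAP2, CDC25B, ASPM and the neighbouring genes were picked after their values were seen.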

Additional observations from a re-analysis of the deposited data

How the results depend on the processing

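KNSTRN kept its direction in all 17 alternatives, with log2 fold changes from -0.86 to -0.75, and its call in 15. The call was lost with the replicate number as a block (-0.84, edgeR adjusted p = 0.265) and without untreated replicate 3 (-0.83, adjusted p = 0.0829). The block left 0 of the 46 lower, and 0 genes higher and 0 lower among all tested, with 1932 at an unadjusted p under 0.05. Same-numbered libraries deviated with correlations of -0.0089, -0.033 and 0.0063 over all genes and 0.45, -0.046 and 0.46 over the 46. No pairing is stated in the labels and the main fit took none, and pairing of the 46 by number was not tested. The cause of the lost calls was not tested.

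Against 7 genes higher and 16 lower, all genes called were 253 and 386 with DESeq2, 15 and 27 with a filter at FPKM 1, and 12 and 25 with limma after quantile normalization. Genes higher were 11 with counts divided by 4 and 11 with limma on log2(FPKM + 0.1). With each library left out, 0 to 15 genes were called higher and 4 to 13 lower, the 46 held 0 to 1 call, and their median ran from -0.016 to 0.021. The 0 higher and 4 lower came without untreated replicate 3, with 1969 genes at an unadjusted p under 0.05. No alternative called another of the 46. Of the 120 further genes, DESeq2 called 1 lower. The median of the 46 was 0.0049 and became 0.037 with scaling by library size only, 0.020 with a filter at FPKM 1, 0.038 and 0.043 with limma at pseudocounts of 1 and 0.1, and 0.057 after quantile normalization.

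Fold changes near 0 turned sign and were never called. CDC25B became 0.023 with library size only, 0.0037 with a filter at FPKM 1, 0.024 and 0.025 with limma at pseudocounts of 1 and 0.1, and 0.058 after quantile normalization, which also gave 0.033 for SPAG5 and 0.023 for CCNB1. With libraries left out, CDC25B ran from -0.27 to 0.24, AURKA from -0.34 to 0.14, KIF14 from -0.13 to 0.10, CENPF from -0.033 to 0.15 and CCNB1 from -0.075 to 0.0053. The cause was not tested. The 3 libraries a group limit what can be called, and 9 of the 46 genes had intervals reaching past 1.5-fold.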
